A study of Mus musculus with 9 samples.

Results

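The 10 genes described here, Gfap, Vim, Lcn2, Edn2, Fgf2, Stat3, Socs3, Cebpd, Serpina3n and Lif, are genes of reactive gliosis and retinal injury. None of them passed an adjusted p of 0.05 in retinas given an anti-C5 antibody. Of all array probe sets that carry a gene name, 0.0197% did so at 10 µg and 0% at 1 µg. The 10 genes were taken by name, each by the array probe sets annotated to that gene alone, and they are 10 of the 22180 genes with a probe set of their own. They had 12 such probe sets: 8 members had 1, and Vim and Socs3 had 2, of which the one with the higher mean over all arrays was used. Values are log2 intensities, so that a difference of 1 is a 2-fold change.

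The study injected an antibody against complement C5, a chimera of a chicken single-chain variable fragment and a murine IgG1, into the vitreous of male C57BL/6 mice (C57BL/6J in its methods) aged 6 weeks, and took the retinas on day 7. There were 3 groups of 3 arrays: control, 1 µg of antibody (the dose the study calls therapeutic) and 10 µg, each given in 1 µL, and each array held the RNA of 4 retinas pooled from different mice. The sample labels give the control as PBS whereas the study's methods describe an isotype IgG1 injection, so which of them these control arrays had received is not settled here. Every group had been injected, and no uninjected retina was among the arrays, so a response to the needle that all groups share would not appear in any comparison. A pool evens out its mice, each group has 3 pools, and how far pools shared animals is not stated. The p-values therefore set a difference against the spread between these pools, not between mice. In bulk retina, fewer cells of a type and less RNA per cell cannot be told apart.

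When the retina is damaged, its astrocytes and Müller glia, the radial glia that span it, become reactive and make more of the intermediate filament proteins GFAP and vimentin. One well-described route begins with LIF, a cytokine that Müller cells release after photoreceptor damage. It acts through the receptor subunit gp130 on JAK kinases and the transcription factor STAT3, whose targets include the feedback inhibitor SOCS3. Endothelin-2, made by injured photoreceptors, and FGF2, which protects photoreceptors, belong to the same response. Lipocalin-2 and serpin A3N are proteins that reactive astrocytes secrete.

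For 9 of the 10 members, all but Cebpd, a window of 250 bases before to 50 bases after the RefSeq gene start was at hand (mouse build GRCm38.p6). These were searched on both strands for letters that fit several transcription factors, of which the STAT factors belong to the route described above. The searched letters were TTCNNNGAA and TTCNNNNGAA for STAT factors, TTGCNNAA for C/EBP factors, GGGNNTTTCC for NF-kB and TGANTCA for AP-1. The windows of Gfap, Socs3, Lcn2 and Serpina3n are shown because their genes are an intermediate filament, a STAT3 feedback gene and the secreted proteins whose values varied most between pools of a group. Capitals mark the matches, which do not overlap one another. The windows lie on the minus strand at chr11:102897151-102897450 for Gfap, chr11:117969317-117969616 for Socs3 and chr2:32387690-32387989 for Lcn2, and on the plus strand at chr12:104406458-104406757 for Serpina3n.
Gfap: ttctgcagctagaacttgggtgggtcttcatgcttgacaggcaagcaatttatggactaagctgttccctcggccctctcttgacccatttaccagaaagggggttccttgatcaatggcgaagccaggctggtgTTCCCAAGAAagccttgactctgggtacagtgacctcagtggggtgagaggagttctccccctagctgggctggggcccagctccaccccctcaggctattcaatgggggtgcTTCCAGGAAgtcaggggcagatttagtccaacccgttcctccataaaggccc
Socs3: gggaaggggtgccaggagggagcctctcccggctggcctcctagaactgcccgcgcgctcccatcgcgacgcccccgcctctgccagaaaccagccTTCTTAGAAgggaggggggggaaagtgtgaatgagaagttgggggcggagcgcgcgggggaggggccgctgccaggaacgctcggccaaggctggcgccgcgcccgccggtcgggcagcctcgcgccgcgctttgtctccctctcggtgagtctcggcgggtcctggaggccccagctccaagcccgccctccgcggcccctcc
Lcn2: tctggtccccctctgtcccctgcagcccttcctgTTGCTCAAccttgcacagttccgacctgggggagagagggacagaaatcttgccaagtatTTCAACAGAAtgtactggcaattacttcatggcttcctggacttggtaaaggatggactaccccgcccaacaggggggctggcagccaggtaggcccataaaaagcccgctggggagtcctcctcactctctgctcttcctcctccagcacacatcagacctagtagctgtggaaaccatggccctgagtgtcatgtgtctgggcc
Serpina3n: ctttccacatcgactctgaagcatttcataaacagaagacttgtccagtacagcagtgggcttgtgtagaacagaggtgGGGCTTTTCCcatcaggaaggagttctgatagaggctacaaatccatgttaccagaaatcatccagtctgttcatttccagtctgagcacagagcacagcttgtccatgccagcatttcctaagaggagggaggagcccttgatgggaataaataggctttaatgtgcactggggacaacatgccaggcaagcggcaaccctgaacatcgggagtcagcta
The Gfap window held both STAT patterns, TTCCCAAGAA beginning 115 bases before the start and TTCCAGGAA beginning 2 bases before it. Socs3 held TTCTTAGAA 154 bases before its start, Lcn2 held TTCAACAGAA 156 bases before and the C/EBP match TTGCTCAA 216 bases before, and Serpina3n held the NF-kB match GGGCTTTTCC 171 bases before. Vim also held an NF-kB match, 223 bases before its start, Lif held an AP-1 match 228 bases before, and the windows of Edn2, Fgf2 and Stat3 held none of the 5 patterns. Of all 32851 windows, 8.3% held TTCNNNGAA, 6.95% TTCNNNNGAA, 10.8% the C/EBP letters, 1.63% the NF-kB letters and 7.81% the AP-1 letters, beside 2, 2, 1, 2 and 1 of the 9 member windows. A match is a string of letters in a window, binding was not measured, and which STAT factor a match fits was not tested.

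Across the 10 members, Gfap, Cebpd and Stat3 had values in all 6 treated pools above all 3 control pools, and the other 7 overlapped or touched control at both doses. The fit was limma across all 9 arrays with Benjamini-Hochberg adjustment over 25341 named probe sets, and the comparisons with control use the same 3 control arrays. No member passed an adjusted p of 0.05 in any comparison, and 0.0197% of named probe sets did at 10 µg, 0% at 1 µg and 0% between the doses. At an unadjusted p below 0.05, 2 members (Gfap and Cebpd) were above control at 10 µg, where 11.4% of named probe sets were, and 3 (with Stat3) at 1 µg, where 7.2% were. None was below control at that level, against backgrounds of 5.99% at 10 µg and 1.84% at 1 µg, and none differed between doses, where 10.4% of named probe sets did. The share of named probe sets with all 3 pools above all 3 control pools was 14.3% at 10 µg and 12.5% at 1 µg, and 6.08% were so at both doses. No member had all 3 treated pools below all 3 control pools, where 8.51% of named probe sets did at 10 µg and 2.45% at 1 µg. For Lif and Edn2 at 10 µg this rested on a tie, as the highest 10 µg pool equalled the lowest control value (5.71 and 6.49). The members' median log2 change was 0.13 at 10 µg, beside 0.02 over all named probe sets, and 0.14 at 1 µg, beside 0.04. Values above control were seen for 7 members at 10 µg (55.7% of named probe sets) and 6 at 1 µg (62.8%).

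**Figure D1:**
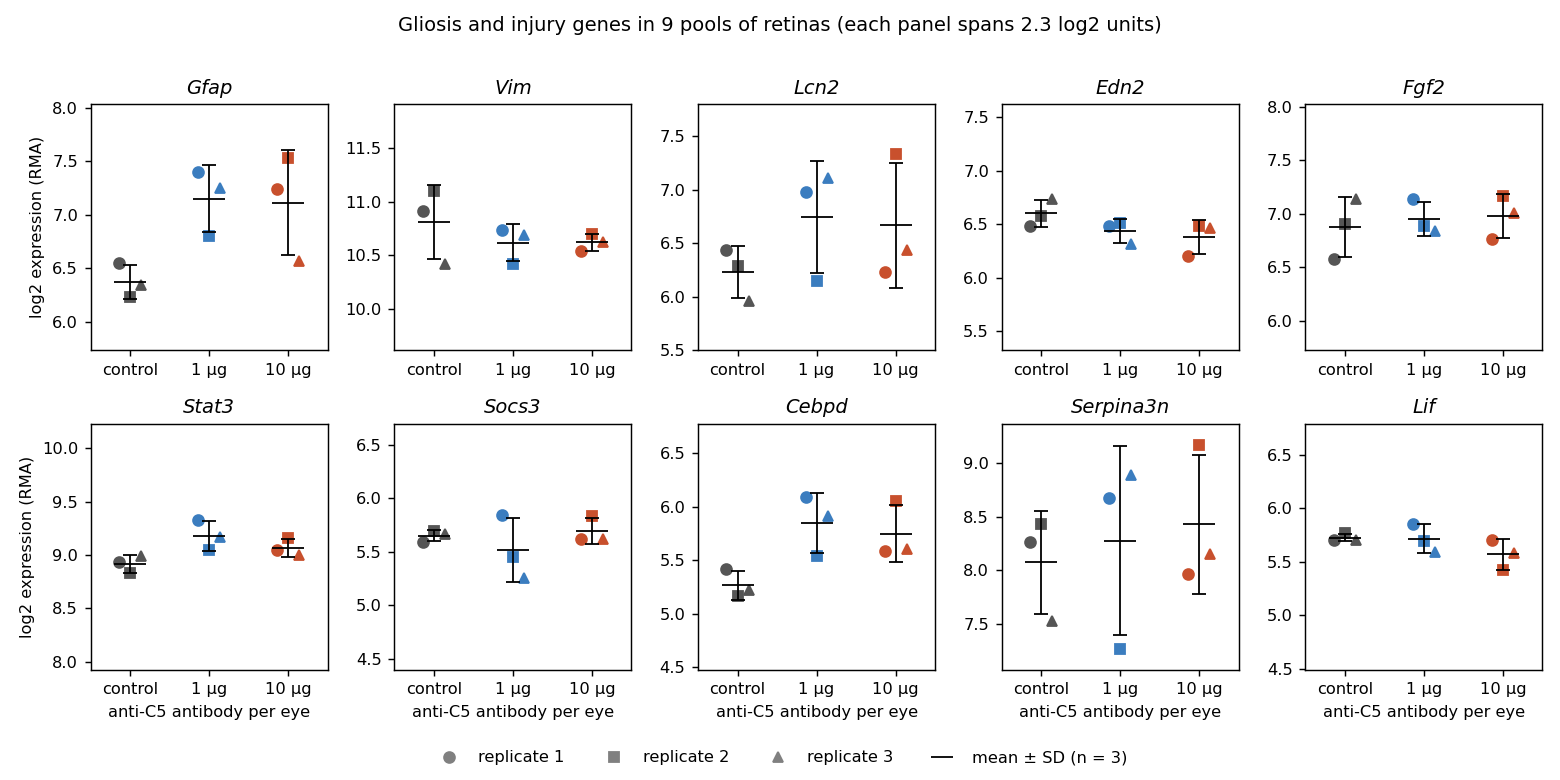
Log2 expression of each of the 10 genes (vertical axis, every panel spanning the same width) in control, 1 µg and 10 µg pools along the horizontal axis, with a point per pool and the group mean ± SD (n = 3). Gfap, Cebpd and Stat3 have all 6 treated pools above the 3 control pools, while Lcn2 and Serpina3n spread widely within each antibody group.

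The ligand genes Lif, Edn2 and Fgf2 overlapped or touched control at both doses. Lif, the gp130 ligand, measured 5.71, 5.76 and 5.71 in the control pools, 5.86, 5.70 and 5.59 in the 1 µg pools, and 5.71, 5.42 and 5.58 in the 10 µg pools. Its log2 change was -0.16 ± 0.0907 (SE) at 10 µg and -0.01 ± 0.0907 at 1 µg, with limma adjusted p of 0.41 and 0.98. The 1 µg pools overlapped control, and the 10 µg pools touched it at 5.71. The pool with the lowest Lif was the second of the 10 µg group, which had the highest value of its group for the 9 other members.

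Edn2, which encodes endothelin-2, measured 6.49, 6.58 and 6.74 in the control pools, 6.49, 6.51 and 6.31 at 1 µg and 6.20, 6.49 and 6.46 at 10 µg. The lowest pool was of the 10 µg group and the highest was a control, with the 10 µg and control ranges touching at 6.49. The change was -0.22 ± 0.102 at 10 µg (adjusted p = 0.314, limma) and -0.17 ± 0.102 at 1 µg (adjusted p = 0.629). Its 95% interval at 10 µg ran between -0.45 and 0.01. Fgf2 lay at 6.58, 6.91 and 7.14 in control pools, 7.14, 6.88 and 6.84 at 1 µg and 6.76, 7.16 and 7.01 at 10 µg, so that the control pools alone spanned nearly the whole range. Its changes of 0.10 at 10 µg and 0.07 at 1 µg (SE 0.158) had limma adjusted p of 0.770 and 0.902.

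Stat3 and Cebpd, which encode transcription factors active in the acute-phase response, lay above control in every treated pool, while Socs3 overlapped it. Stat3 measured 8.93, 8.83 and 8.99 in control pools, 9.32, 9.05 and 9.17 in 1 µg pools and 9.04, 9.16 and 9.0 in 10 µg pools. The lowest 10 µg pool and the highest control pool differed only in the second decimal. Its log2 change was 0.15 ± 0.0852 at 10 µg (adjusted p = 0.395, limma) and 0.26 ± 0.0852 at 1 µg (adjusted p = 0.520).

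Cebpd, encoding C/EBP delta, had 5.41, 5.16 and 5.22 in control pools, 6.09, 5.53 and 5.91 in 1 µg pools and 5.59, 6.05 and 5.60 in 10 µg pools. All treated pools were above all control pools, and the spread within each antibody group was wider than within control. The change was 0.48 ± 0.169 at 10 µg, or 1.40-fold, and 0.58 ± 0.169 at 1 µg, or 1.5-fold. Its limma adjusted p-values were 0.198 and 0.506, and the 95% intervals of 0.10 to 0.87 and 0.20 to 0.97 both lay under a 2-fold change. Socs3, the gene of the STAT3 feedback inhibitor, measured 5.59, 5.69 and 5.67 in control pools, 5.84, 5.45 and 5.25 at 1 µg and 5.62, 5.84 and 5.62 at 10 µg. Both the highest and the lowest of these values came from antibody groups. Its changes were 0.04 at 10 µg and -0.14 at 1 µg (SE 0.138, limma adjusted p 0.902 and 0.772), and its dimmer probe set differed by 0.01 and -0.11.

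The 2 intermediate filament genes among the members differed in sign against control. Gfap, the standard marker of glial reactivity, measured 6.55, 6.23 and 6.34 in control pools, 7.40, 6.80 and 7.25 in 1 µg pools and 7.24, 7.53 and 6.57 in 10 µg pools. The third 10 µg pool was close to the highest control pool, and the other treated pools lay further above it. Group means were 6.37 ± 0.159 in control, 7.15 ± 0.314 at 1 µg and 7.11 ± 0.493 at 10 µg (SD, n = 3 each). The log2 change was 0.74 ± 0.244 at 10 µg, or 1.67-fold with a 95% interval of 1.14 to 2.46, and 0.78 ± 0.244 at 1 µg, or 1.71-fold (1.16 to 2.52). Its adjusted p was 0.180 at 10 µg and 0.517 at 1 µg with limma, and leaving out single arrays gave 10 µg changes between 0.53 and 1.01, with the lowest adjusted p at 0.055. The doses differed by -0.04 ± 0.244, with an interval of -0.59 to 0.52.

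Vim, encoding vimentin of Müller cells and astrocytes, measured 10.91, 11.10 and 10.42 in control pools, 10.74, 10.42 and 10.69 at 1 µg and 10.54, 10.70 and 10.62 at 10 µg. Its first and second control pools were the highest of all 9 and the third was level with the lowest treated pool. The change was -0.19 ± 0.164 at each dose, with limma adjusted p of 0.576 at 10 µg and 0.725 at 1 µg. The dimmer Vim probe set differed by 0.04 at 10 µg and -0.13 at 1 µg, so the probe sets had opposite signs at 10 µg. Lens cells also make vimentin, and the 14 measured lens genes were highest in the same control pools, at a mean log2 level of 8.55 and 8.99 in the first and second against 6.51 in the third. Over the 9 arrays the lens mean correlated with Vim at r = 0.69, and at 0.62 with group means removed, as a description. The lens genes' part in the Vim values was not tested.

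Lcn2 and Serpina3n had the largest standard errors of the 10 members, which measure the spread between pools within groups. Lcn2 measured 6.44, 6.29 and 5.96 in control pools, 6.98, 6.15 and 7.11 in 1 µg pools and 6.23, 7.34 and 6.43 in 10 µg pools. In each antibody group at least 1 pool lay within the control range. The change was 0.43 ± 0.329 at 10 µg and 0.51 ± 0.329 at 1 µg (limma adjusted p 0.526 and 0.645), and without the second 10 µg pool the 10 µg change was 0.10.

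Serpina3n, encoding a secreted protease inhibitor, measured 8.27, 8.43 and 7.52 in control pools, 8.67, 7.27 and 8.89 at 1 µg and 7.96, 9.17 and 8.15 at 10 µg. Its lowest and highest values were both in antibody groups. The changes were 0.36 at 10 µg and 0.20 at 1 µg with an SE of 0.476, against a median SE of 0.093 over all named probe sets, and the limma adjusted p-values were 0.727 and 0.914. Without the second 10 µg pool the 10 µg change was -0.01, and the interval with all pools, -0.73 to 1.44, held both a 2-fold change and no change. In mouse the Serpina3 genes form a cluster of close copies, and how well the probes tell them apart was not tested.

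**Figure D2:**
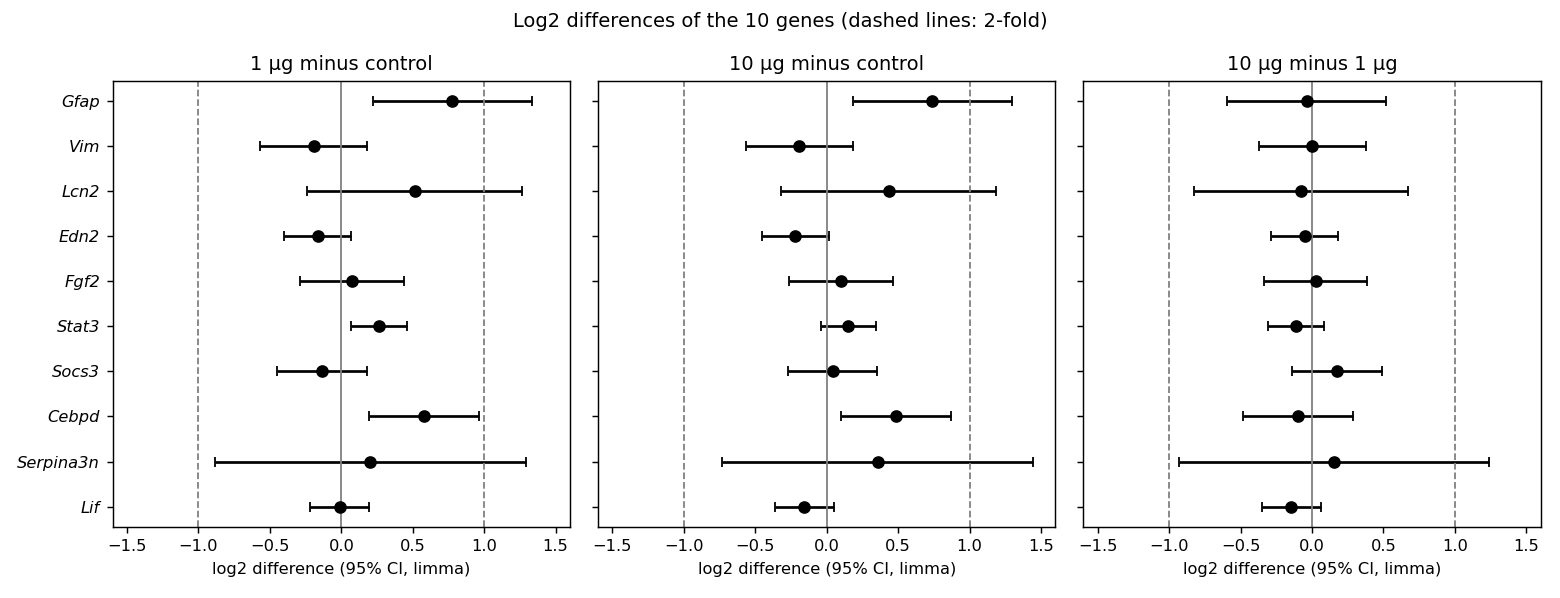
Log2 change of each gene at 1 µg and 10 µg against control, and of 10 µg against 1 µg (horizontal axis, a panel per comparison), with points for the limma estimate and bars for its 95% interval. Dashed lines mark a 2-fold change. The intervals of Gfap and Cebpd exclude 0 at both doses before any adjustment, and that of Stat3 does so at 1 µg.

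No member was over 2-fold from control at either dose, where 1.13% of named probe sets at 10 µg and 0.679% at 1 µg were so with an unadjusted p below 0.05. The 95% intervals stayed within a 2-fold change in both directions for 7 members at each dose, the exceptions being Gfap, Lcn2 and Serpina3n. Between the doses 4 members were higher at 10 µg, where 46.9% of named probe sets were. None was over 2-fold, where 0.0158% of named probe sets were so with an unadjusted p below 0.05 in limma. None had all 3 pools above (4.48%) or below (9.44%) the other group's. No member had an adjusted p under 0.574 there with limma, and 9 intervals stayed within 2-fold, Serpina3n being the exception at -0.93 to 1.24. Changes between 10 µg and 1 µg ran in size up to 0.18, for Socs3, with a median of -0.04 beside -0.01 over all named probe sets.

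Pools within a group differed in several members at once. The second 10 µg pool had the highest value of its group for 9 of the 10 members and the first had the lowest for 7, in a tie with the third for Socs3. At 1 µg, the first pool was highest for 7 and the second lowest for 6, whereas in control each pool was highest for 3 or 4. The median deviation of the members from the control mean was 0.06, 0.04 and -0.03 in control pools, 0.33, -0.06 and 0.11 in 1 µg pools and -0.02, 0.27 and 0.08 in 10 µg pools. In both antibody groups the order of the pools was the same for Lcn2 and Serpina3n.

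**Figure D3:**
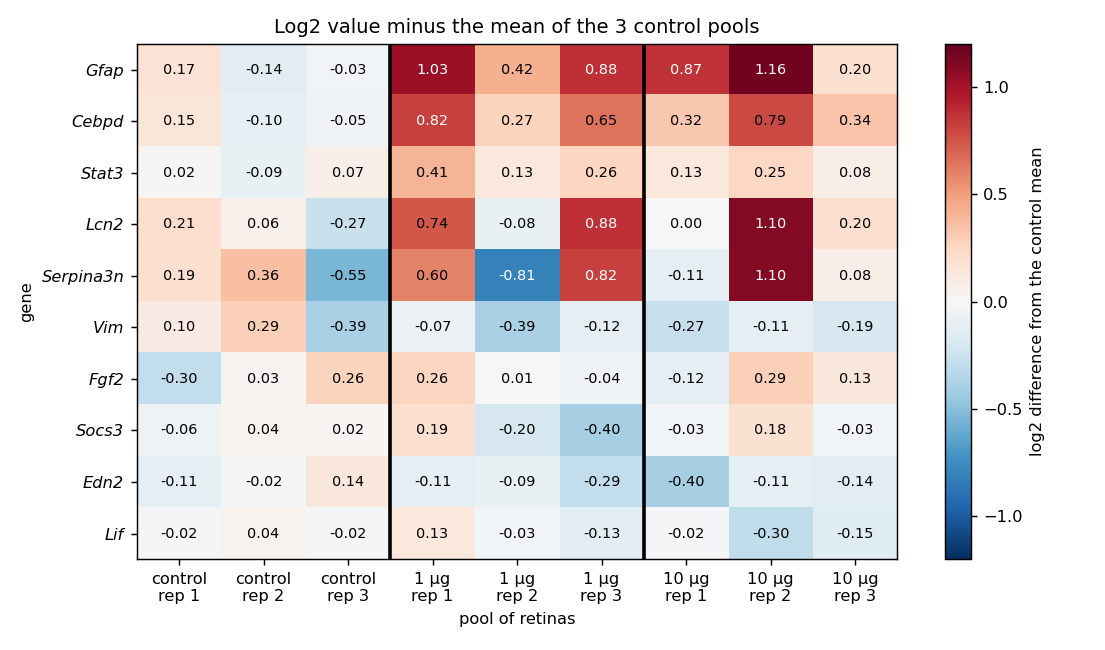
Deviation of each gene (rows) in each pool (columns, control then 1 µg then 10 µg) from the mean of the control pools, as a log2 difference printed in each cell and shown by colour. The second 10 µg pool is high for Gfap, Lcn2, Serpina3n and Cebpd together, and the second 1 µg pool is low for Lcn2 and Serpina3n.

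Over the 9 arrays Lcn2 and Serpina3n correlated at Pearson r = 0.91 (Spearman rho 0.93), at 0.80 without the 2 pools farthest from the median and at 0.96 with the group means removed. Gfap and Cebpd correlated at 0.93, Stat3 and Cebpd at 0.92 and Gfap and Stat3 at 0.86. With the group means removed these were 0.814, 0.855 and 0.763. The points share arrays and pools, so these are descriptions. Among 11090 brighter genes, Osmr, the oncostatin M receptor subunit that pairs with gp130, was the most like Gfap (r = 0.95) and Cebpd (0.98) and ranked after Adamts1 (0.97) for Stat3, where it stood at 0.95. With the group means removed Osmr stood at 0.912 with Gfap, 0.948 with Cebpd and 0.91 with Stat3. It measured 7.20, 7.02 and 7.15 in control pools, 7.89, 7.43 and 7.79 at 1 µg and 7.52, 7.76 and 7.38 at 10 µg. All treated pools were above all control pools, with changes of 0.43 ± 0.136 at 10 µg (adjusted p = 0.165, limma) and 0.58 ± 0.136 at 1 µg (adjusted p = 0.506). Osmr was picked here on the same 9 arrays, by likeness to members whose treated pools lay above control. Its own separation from control is thus no separate evidence, and how high the best of 11090 correlations would run by chance was not tested. The other genes nearest to Gfap were A130010J15Rik (0.93) and Vmn1r159 (0.92), the third for Stat3 was Tank (0.95), and for Cebpd Ppp6r1 (0.97) and Ifnar2 (0.96) followed.

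Markers of microglia and macrophages, the resident and infiltrating phagocytes, varied with several members. The mean log2 level of their 14 measured markers was 6.12 to 6.18 in control pools, 6.25 to 6.41 at 1 µg and 6.34 to 6.52 at 10 µg, highest in the second 10 µg pool. The list's median change at 10 µg was 0.23, 11 of the 14 genes lay above control (55.7% of named probe sets), and 7 did so with an unadjusted p below 0.05 (11.4%), while 0 passed adjustment. Csf1r, the receptor of colony-stimulating factor 1, measured 5.98, 6.09 and 5.97 in control pools, 6.32, 6.27 and 6.53 at 1 µg and 6.28, 6.79 and 6.44 at 10 µg. The 3 genes below control at 10 µg were Aif1 (-0.05), Tmem119 (-0.05) and Fcrls (-0.005), named after their values were seen. All 3 10 µg pools lay below all 3 control pools for 1 gene, Aif1 (8.51% of named probe sets), and above them for 8 genes (14.3%). The list's mean correlated with Gfap at 0.89, Cebpd at 0.88, Lcn2 at 0.80 and Serpina3n at 0.63 over the arrays, and with group means removed at 0.80, 0.86, 0.94 and 0.87. The other members stood at 0.69 (Stat3), 0.23 (Fgf2), 0.03 (Socs3), -0.17 (Vim), -0.62 (Edn2) and -0.64 (Lif). With group means removed these were 0.59, 0.066, 0.085, 0.43, -0.15 and -0.60. The part of these phagocytes in the members' values was not tested. The neutrophil list, whose cells carry much Lcn2, had a mean of 4.50 to 4.63 in control, 4.59 to 4.65 at 1 µg and 4.50 to 4.63 at 10 µg, with 4 of 10 genes above control at 10 µg and 6 below. These means all lay under 4.98, the 25th percentile of mean level over named probe sets, so the list was dim on average. Not every gene of it was: Mpo had group means of 5.21 in control, 5.15 at 1 µg and 4.89 at 10 µg, against 4.37, 4.76 and 4.78 for Ly6g. Within it Ly6g had all treated pools above all control pools, with changes of 0.41 at 10 µg and 0.39 at 1 µg, whereas Mpo changed by -0.32 and -0.06. None of these passed adjustment, and a neutrophil part in the Lcn2 values was not tested.

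**Figure D4:**
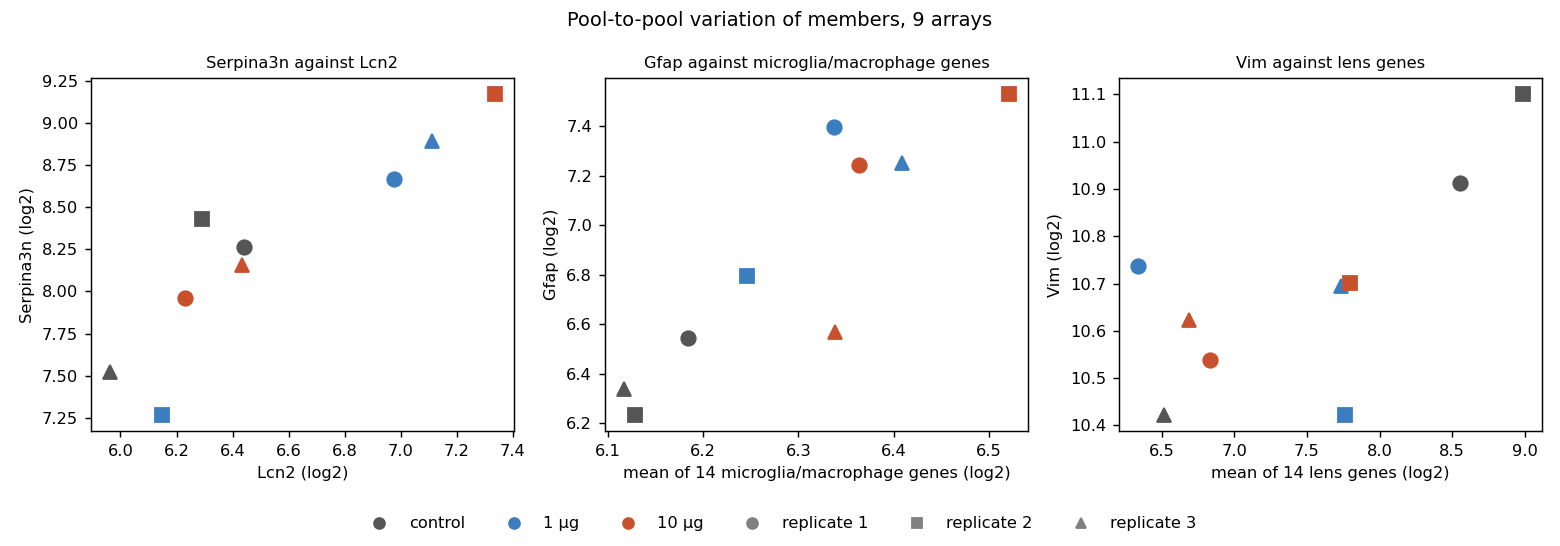
Log2 values of Serpina3n against Lcn2, of Gfap against the mean of 14 microglia and macrophage genes, and of Vim against the mean of 14 lens genes, with a point per pool coloured by group and shaped by replicate. Serpina3n is highest, at 9.17, in the second 10 µg pool, where Lcn2 (7.34) and Gfap (7.53) are highest too, and Vim is highest, at 11.10, in the control pool with the highest lens mean (8.99).

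The retina's own glia were also measured by lists without the members. Beside the counts of these and the later lists, 55.7% of named probe sets were above control at 10 µg and 62.8% at 1 µg. With an unadjusted p below 0.05 in limma, 11.4% were above and 5.99% below control at 10 µg, and 7.2% were above at 1 µg. All 12 measured Müller glia genes were above control at 10 µg, by a median of 0.15, and 11 at 1 µg, by 0.11. The list's mean was 8.91 to 8.99 in control pools, 9.06 to 9.09 at 1 µg and 9.05 to 9.18 at 10 µg, without overlap, although no gene of it passed an adjusted p of 0.05 in this fit. Its smallest adjusted p with limma, 0.0864, was at 10 µg, where 4 genes had an unadjusted p below 0.05, and a trended and robust prior called 1 gene there. Kcnj10, a potassium channel of Müller cells, measured 8.62, 8.60 and 8.61 in control pools, 8.73, 9.08 and 8.84 at 1 µg and 8.91, 9.13 and 9.10 at 10 µg. The astrocyte list had medians of 0.05 at 10 µg and 0.04 at 1 µg, and 5 of its 7 genes exceeded control at each dose. Its 10 µg median was 0.00 without the second 10 µg array and 0.13 without the first. Over the 9 arrays Gfap correlated with the Müller glia mean at 0.585, and at -0.263 with group means removed, as a description. With the astrocyte mean Gfap stood at -0.333, and at -0.509 with group means removed. Gja1 (named after its values were seen) had the largest standard error of the astrocyte list, 0.458. It measured 7.53, 8.53 and 7.03 in control pools, 7.05, 6.64 and 6.28 at 1 µg and 6.64, 7.49 and 8.17 at 10 µg. The astrocyte mean therefore leans on this gene, and its part in the correlation with Gfap was not tested. Markers of rods, the main photoreceptor, held a mean of 11.82 to 11.86 in every pool, and 4 of 8 were above control at 10 µg. Ganglion cell markers exceeded control in 8 of 9 cases at each dose, 6 of them at 10 µg and 5 at 1 µg with an unadjusted p below 0.05, and their medians were 0.29 and 0.24. Muscle genes, which the retina lacks, stood at a mean of 8.38 in the first control pool against 5.64 to 6.70 in the other 8 pools, so markers of this other tissue differed between pools.

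The other genes of the pathway were counted by list, and 0 genes of the 13 lists passed an adjusted p of 0.05 in any of the 3 comparisons with limma as fitted here. With a trended and robust prior, 527 named probe sets passed at 10 µg, none of them a member and 1 of them in the FGF list. All 6 measured gp130 ligands besides Lif were below control at 10 µg (median -0.13), whereas at 1 µg 4 were above it (0.03, and -0.02 with array weights). Of 16 gp130 receptor and JAK-STAT genes 9 were above control at 10 µg (median 0.01, and -0.01 after cyclic loess) and 11 at 1 µg (0.06), with 3 above and 2 below at an unadjusted p under 0.05 at 10 µg. The lower ones included Stat5a, at 6.67, 6.64 and 6.39 in control pools, 6.52, 6.41 and 6.34 at 1 µg and 6.11, 6.17 and 6.40 at 10 µg. Of 13 STAT3 target genes 9 were above control at 10 µg (0.13) and 10 at 1 µg (0.07). Bcl2l1, which encodes the survival protein BCL-XL, was at 6.77, 6.86 and 6.85 in control pools, 6.88, 6.92 and 7.03 at 1 µg and 7.06, 6.98 and 7.11 at 10 µg. The other C/EBP genes had 2 of 5 above control at 10 µg (median -0.10, and 0.010 without the third 10 µg array) and 4 at 1 µg (0.03, and -0.0024 without the first 1 µg array). Their highest change was that of Cebpg (named after its values were seen) at both doses, 0.05 at 10 µg and 0.17 at 1 µg, beside 0.48 and 0.58 for Cebpd, and the differences from Cebpd were not tested.

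Lists of reactive astrocyte genes had medians between -0.02 and 0.14, and some of these medians changed sign or size with the processing. Of the 9 genes shared by several kinds of astrocyte reactivity besides the members, 4 were above control at 10 µg (median -0.02, between -0.05 and 0.02 over the alternatives) and 4 at 1 µg (-0.02, between -0.06 and 0.03). The class called A1, first described in inflammation, had 7 of 8 above control at 10 µg (0.06) and 4 at 1 µg (-0.01, and 0.10 without the first control array). The class called A2, first described in ischaemia, had 9 of 12 above control at 10 µg (0.14) and 8 at 1 µg (0.05), with medians of 0.04 and 0.02 when dim probe sets were left out. The 9 shared genes include Osmr, whose values are given above and which also belongs to the gp130 receptor and STAT3 target lists. Osmr had the smallest limma adjusted p of the 9 at 10 µg, 0.165. Timp1, another of the 9 and an inhibitor of metalloproteinases, measured 4.18, 4.07 and 4.27 in control pools, 4.07, 4.07 and 3.96 at 1 µg and 3.96, 4.07 and 4.01 at 10 µg. Timp1 was dim, under the 25th percentile of named probe sets (4.98), and its treated pools overlapped control at both doses. Serping1, the C1 inhibitor and a gene of the A1 class, measured 7.35, 6.96 and 6.82 in control pools, 7.44, 6.44 and 7.25 at 1 µg and 7.47, 7.57 and 7.31 at 10 µg, with the same low second pool at 1 µg as Lcn2 and Serpina3n.

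Other intermediate filament genes had 9 of 12 above control at 10 µg (median 0.11) and 7 at 1 µg (0.05). The neuronal filament gene Nefl was at 10.53, 10.62 and 10.64 in control pools, 10.63, 10.82 and 10.88 at 1 µg and 10.80, 10.84 and 10.95 at 10 µg. The FGF list had 12 of 16 above control at 10 µg (0.07) and 10 at 1 µg (0.06), with Fgf12 at 9.15, 9.09 and 9.15 in control pools, 9.28, 9.31 and 9.36 at 1 µg and 9.32, 9.42 and 9.54 at 10 µg. Neither gene's 10 µg pools overlapped control, and Fgf12 had the smallest adjusted p of any pathway gene, 0.0968 at 10 µg. The endothelin list had 2 of 5 above control at 10 µg (median -0.05, and 0.014 without the second 10 µg array) and 4 at 1 µg (0.06). The measured Serpina3 relatives had 2 of 4 above control at 10 µg (0.00194) and 3 at 1 µg (0.04). The Lcn2 partners and acute-phase genes had 5 of 11 above control at each dose, with medians of -0.01 at 10 µg and -0.04 at 1 µg that ran between -0.07 and 0.04 and between -0.08 and 0.04 over the alternatives.

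Of 15 genes of retinal stress and ganglion cell injury, 11 were above control at 10 µg (median 0.11) and 9 at 1 µg (0.09). Mt1 and Mt2 encode metallothioneins, metal-binding proteins made under stress. Mt1 measured 7.73, 7.85 and 7.80 in control pools, 8.02, 8.05 and 8.15 at 1 µg and 7.92, 8.30 and 8.27 at 10 µg. Mt2 measured 9.07, 9.19 and 9.15 in control pools, 9.37, 9.34 and 9.45 at 1 µg and 9.19, 9.76 and 9.60 at 10 µg. Only the first 10 µg pool touched the control range for Mt2, and none did for Mt1. Their changes were 0.37 and 0.38 at 10 µg and 0.28 and 0.25 at 1 µg, and neither passed adjustment.

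**Figure D5:**
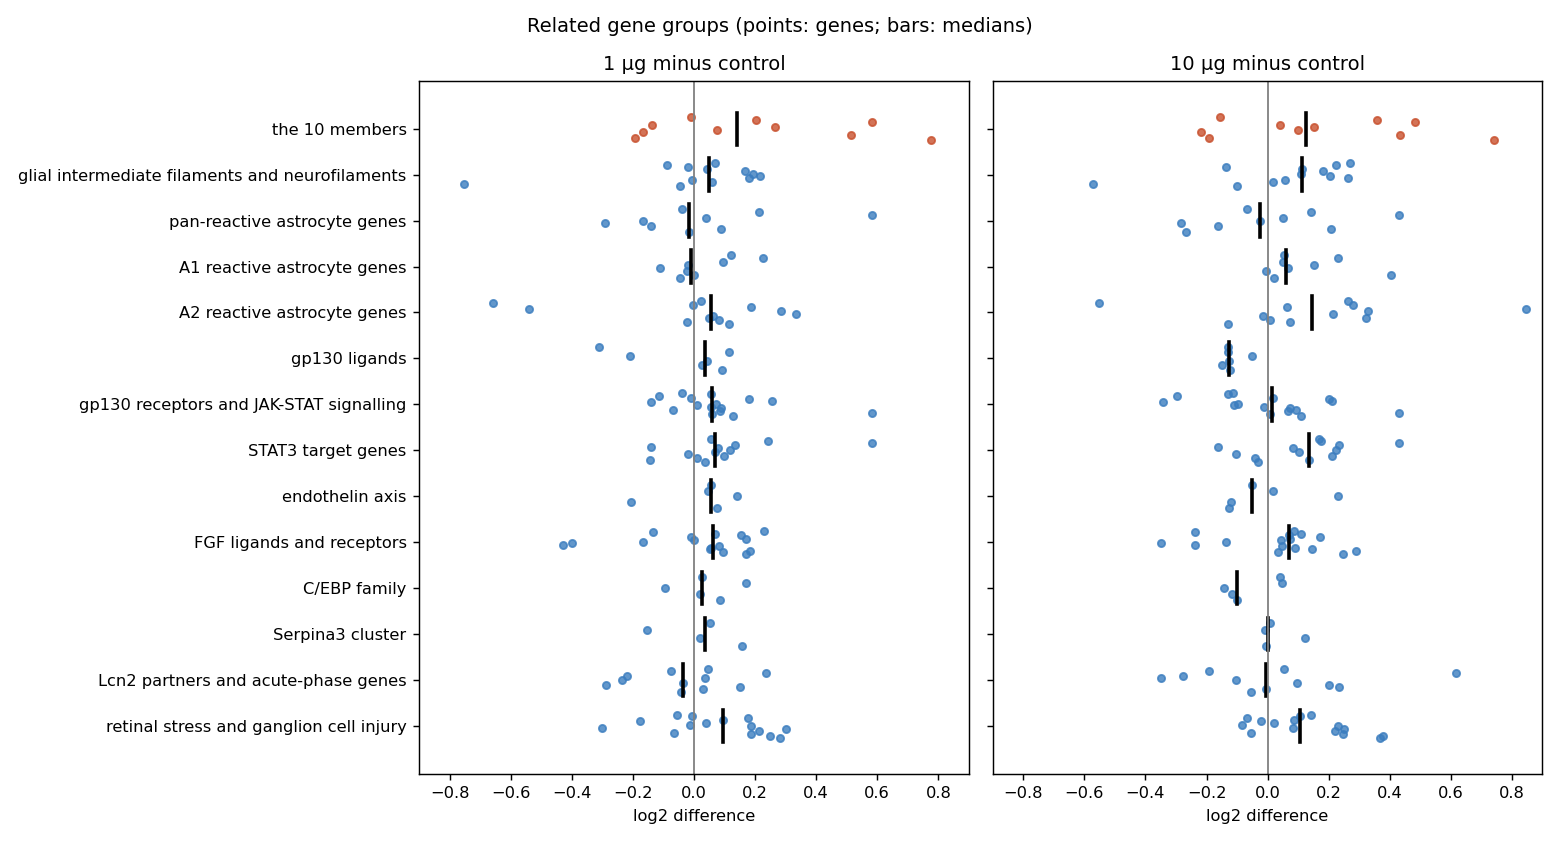
Log2 change against control (horizontal axis) of every measured gene of the 13 pathway lists and of the 10 members (top row) at 1 µg and 10 µg, a point per gene, with a bar at each median. At 10 µg the list medians run between -0.13 for the gp130 ligands and 0.14 for the A2 genes, and the members' median is 0.13.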

How the data were processed

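RNA from 9 pools of retinas was measured on Affymetrix Mouse Gene ST microarrays, and the deposited values are log2 intensities that the authors made with RMA (background correction, quantile normalization and summary per probe set) in Affymetrix Expression Console 1.1 per the labels. Quantile normalization makes the arrays' distributions alike, so a shift shared by most genes would be removed. Array medians ran from 5.88 to 6.04 and pairwise correlations from 0.971 to 0.991. The number of arrays limits the precision. Groups came from the sample labels, all 9 columns were mapped and 0 stood outside the mapping.

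The platform annotation gave 1 gene symbol for 23521 of 41345 probe sets, several for 1820 and none for 16004. The members and gene lists were chosen with earlier results of these data known. Each member was read from the probe set naming it alone with the highest mean. From each list the genes that could be named were the 3 with the smallest p at 10 µg, and likeness was Pearson's r among genes above the median level. The study gives a fold and a p threshold for the arrays but its methods name no test for them, so limma 3.58.1 in R 4.3.3 (lmFit and eBayes, 6 residual degrees of freedom, two-sided) was fitted to all 9 arrays, with p-values adjusted by Benjamini-Hochberg across all 25341 probe sets that carry a name and a threshold of 0.05. The script was tested on simulated data. Alternatives were other priors, weights, scalings, probe set filters and 2-group fits, a replicate block and each array left out. Promoter windows were RefSeq's (GRCm38.p6). Coordinates of probe sets were not used, since the build is not given in the sources used here. Python 3.11.15 and matplotlib 3.10.9 drew the figures.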

Additional observations from a re-analysis of the deposited data

How the results depend on the processing

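No member passed an adjusted p of 0.05 under any of the 20 alternatives (lowest adjusted p 0.055, Gfap at 10 µg without the third array of that group), and of 576 member changes 544 kept their direction and 32 were reversed, 0 of these for Gfap, Cebpd or Stat3 against control. The number of members with an unadjusted p below 0.05 ran from 1 (without the second control or the second 10 µg array) to 3 at 10 µg and 2 (without the second control array) to 4 at 1 µg with single arrays left out. The background count was far less stable. The 5 named probe sets called at 10 µg became 527 with a trended and robust prior, 288 with median centring, 199 with dim probe sets left out, 120 with cyclic loess, 2 over all probe sets, 1 over probe sets naming 1 gene, 1 with array weights, 0 with an ordinary linear model, and 0 to 328 with single arrays left out (0 to 2 at 1 µg). At 10 µg the count was 328 without the third 10 µg array, 249 and 178 without the second and the first 1 µg array, 2 without the third control array, and 0 without either other control or 10 µg array. Whether the replicate numbers pair the pools was not settled. Correlations of deviations between pools of the same number ran from -0.201 to 0.126, and some pools, but not all, correlated best with their own number. With a replicate block 0 named probe sets passed at 10 µg and no member was called. Array weights gave a members' median of -0.031 at 1 µg, and reversed Fgf2 (-0.019) and Serpina3n (-0.043) at 1 µg and, between doses, Cebpd (0.041), Gfap (0.12) and Lcn2 (0.16). Median centring (0.0079) and cyclic loess (0.014) reversed Gfap between doses. With single arrays left out, reversed ranges at 10 µg were -0.047 to 0.23 for Fgf2, -0.014 to 0.59 for Serpina3n and -0.030 to 0.077 for Socs3, at 1 µg -0.073 to 0.21 for Fgf2, -0.081 to 0.051 for Lif and -0.10 to 0.71 for Serpina3n, and between doses -0.25 to 0.023 for Cebpd, -0.11 to 0.039 for Edn2, -0.066 to 0.14 for Fgf2, -0.24 to 0.24 for Gfap, -0.41 to 0.14 for Lcn2, -0.35 to 0.46 for Serpina3n and -0.096 to 0.062 for Vim. The members' median ran from -0.0027 to 0.19 at 10 µg, -0.0055 to 0.22 at 1 µg and -0.17 to 0.050 between doses. The cause of these moves was not tested.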

Other observations

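Edn2 and Lif each held a single log2 value on 3 of the 9 arrays (6.49 and 5.71) and Socs3 held 5.62 on 2, at the full precision of the files, while the other 7 members had 9 different values. Of all named probe sets, 53.5% had a value on at least 2 arrays and 29.4% on at least 3.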
